A study of Mus musculus with 79 samples.

Results

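The genes described here are 31 genes of glutamate receptors and their auxiliary subunits, out of 55335 genes in the deposited count table. They were chosen by gene name and family, a choice made with earlier results of these data known. They comprise 4 AMPA receptor subunits (Gria1 to Gria4), 6 NMDA receptor subunits (Grin1, Grin2a, Grin2b, Grin2c, Grin2d, Grin3a), 5 kainate receptor subunits (Grik1 to Grik5) and the delta receptor Grid1. The other members are 6 metabotropic receptors (Grm2, Grm3, Grm4, Grm5, Grm7, Grm8), 5 transmembrane AMPA receptor regulatory proteins (Cacng2, Cacng3, Cacng5, Cacng7, Cacng8), the kainate receptor auxiliary subunits Neto1 and Neto2, and the cornichons Cnih2 and Cnih3.

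Glutamate is the main excitatory transmitter of the cortex. AMPA, NMDA and kainate receptors are tetrameric ion channels, and the subunits in a tetramer set its kinetics, calcium permeability and trafficking; the auxiliary subunits bind AMPA or kainate receptors and change their gating and surface delivery. Metabotropic receptors couple to G proteins: group I (Grm5 here) to Gq, groups II (Grm2, Grm3) and III (Grm4, Grm7, Grm8) to Gi. VIP interneurons are GABAergic cells that express vasoactive intestinal peptide and mostly inhibit other interneurons.

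The series measured RNA of nuclei sorted from adult mouse visual cortex. Kir2.1, encoded by Kcnj2, is an inwardly rectifying potassium channel, used as a tool because its expression lowers a neuron's excitability; the control vector carried a mutant form whose mutation is not given in the sources used here. Transduced nuclei came from mice injected with AAV-Syn1-Kir2.1-2a-mScarlet-KASH or with the same vector whose channel is labelled Kir2.1(Mutant); in both the Syn1 promoter, active in neurons, drives the channel and a red nuclear-envelope tag. Every mouse, those with no AAV included, carried INTACT wt/ki together with VIP Cre wt/ki, so that cells expressing the Cre bear a nuclear tag. Every library, those with no AAV included, is labelled as housed in the dark for 10 days. Per the labels' protocols AAV was injected at postnatal day 55 to 60 and dark housing began 3 days later; the age of the mice with no AAV is not stated. The protocol text gives 10 to 12 days and also allows harvest after a short return to light, and no label says whether any library was taken that way.

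There were 10 groups and 79 libraries. Transduced VIP nuclei gave 10 libraries with Kir2.1 and 9 with the mutant, and transduced nuclei of the neuron sort (called transduced neurons here) gave 8 with each vector. Non-transduced VIP nuclei gave 10 libraries from mice injected with Kir2.1, 9 from mice injected with the mutant and 3 from mice with no AAV. All non-transduced nuclei gave 10, 9 and 3 libraries of the same 3 kinds. Each library was made from 50 to 100 nuclei, so it is a pool and not a cell, and the titles number biological replicates without tying a number to an animal. Whether the neuron sort left out VIP nuclei is not given in the sources used here.

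Library totals ran from 3219899 to 9267246 counts with a median of 6170915, and the 31 genes together took 0.904% to 1.62% of a library's counts. Kcnj2, which both vectors carry and which therefore marks transduction and not the mutation, averaged 588 ± 224 CPM (counts scaled to library size) in Kir2.1 and 766 ± 307 CPM in mutant transduced VIP nuclei, against 15.3 ± 8.37 CPM and 22.8 ± 8.06 CPM in the matching non-transduced VIP nuclei (SD, n = 10, 9, 10 and 9). It averaged 528 ± 378 CPM in Kir2.1 and 410 ± 131 CPM in mutant transduced neurons (SD, n = 8 each), and 6.98 ± 7.75 CPM in VIP nuclei with no AAV (SD, n = 3). The sex label went against Xist and Y-linked counts in 32 of the 79 libraries, so the sex label entered only as an alternative. A group of 5 libraries lay apart from their groups in correlation with the group's median profile: Kir2.1 transduced VIP replicate 1, mutant transduced VIP replicates 1 and 8, Kir2.1 non-transduced VIP replicate 9 and Kir2.1 transduced neurons replicate 10. In VIP nuclei 10 of 10 tested VIP markers and 8 of 8 pan-GABAergic markers were higher than in all nuclei. Of 12 excitatory markers 11 were lower and 1 was higher (Rspo1), and 7 of 7 oligodendrocyte and 7 of 7 microglial markers were lower. Astrocyte markers were not lower as a list: of 8 tested 1 was lower (Slc1a3) and 1 higher (Atp1b2). Their sum averaged 324 ± 74.7, 303 ± 64.8 and 387 ± 50.4 CPM in non-transduced VIP nuclei with Kir2.1, mutant and no AAV. In all non-transduced nuclei it averaged 276 ± 80.3, 239 ± 62.4 and 300 ± 50.9 CPM (SD, n = 10, 9 and 3 each). The VIP marker Chrna2 was at 0 in every VIP library, and transduced neurons held more excitatory than GABAergic marker signal.

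Among the 31 genes, the level per kilobase of exon was led by Grm7, a presynaptic group III receptor, in all 10 groups, where its mean ran from 213 to 444 CPM per kb. In VIP nuclei the next genes were Grik2 and Grid1 or Gria1: Grik2, a main kainate receptor subunit, averaged 127 ± 46.7 CPM per kb in Kir2.1 and 138 ± 24.8 CPM per kb in mutant transduced VIP nuclei (SD, n = 10 and 9). In transduced neurons Gria1, encoding GluA1, averaged 157 ± 30.9 CPM per kb with Kir2.1 and 135 ± 22.4 CPM per kb with the mutant, and Cacng3, an AMPA receptor regulatory protein, averaged 111 ± 23.0 and 150 ± 18.1 CPM per kb in the same order (SD, n = 8 each). Grin2c, the NMDA receptor subunit best known from cerebellum, was the least abundant: it held 0 counts in 9 of 10 Kir2.1 and 7 of 9 mutant transduced VIP libraries, and averaged under 1 CPM in 9 of 10 groups. These levels divide by the full annotated exon length although reads came from oligo-dT primed nuclear RNA, so they rank genes only coarsely.

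**Figure D1:**
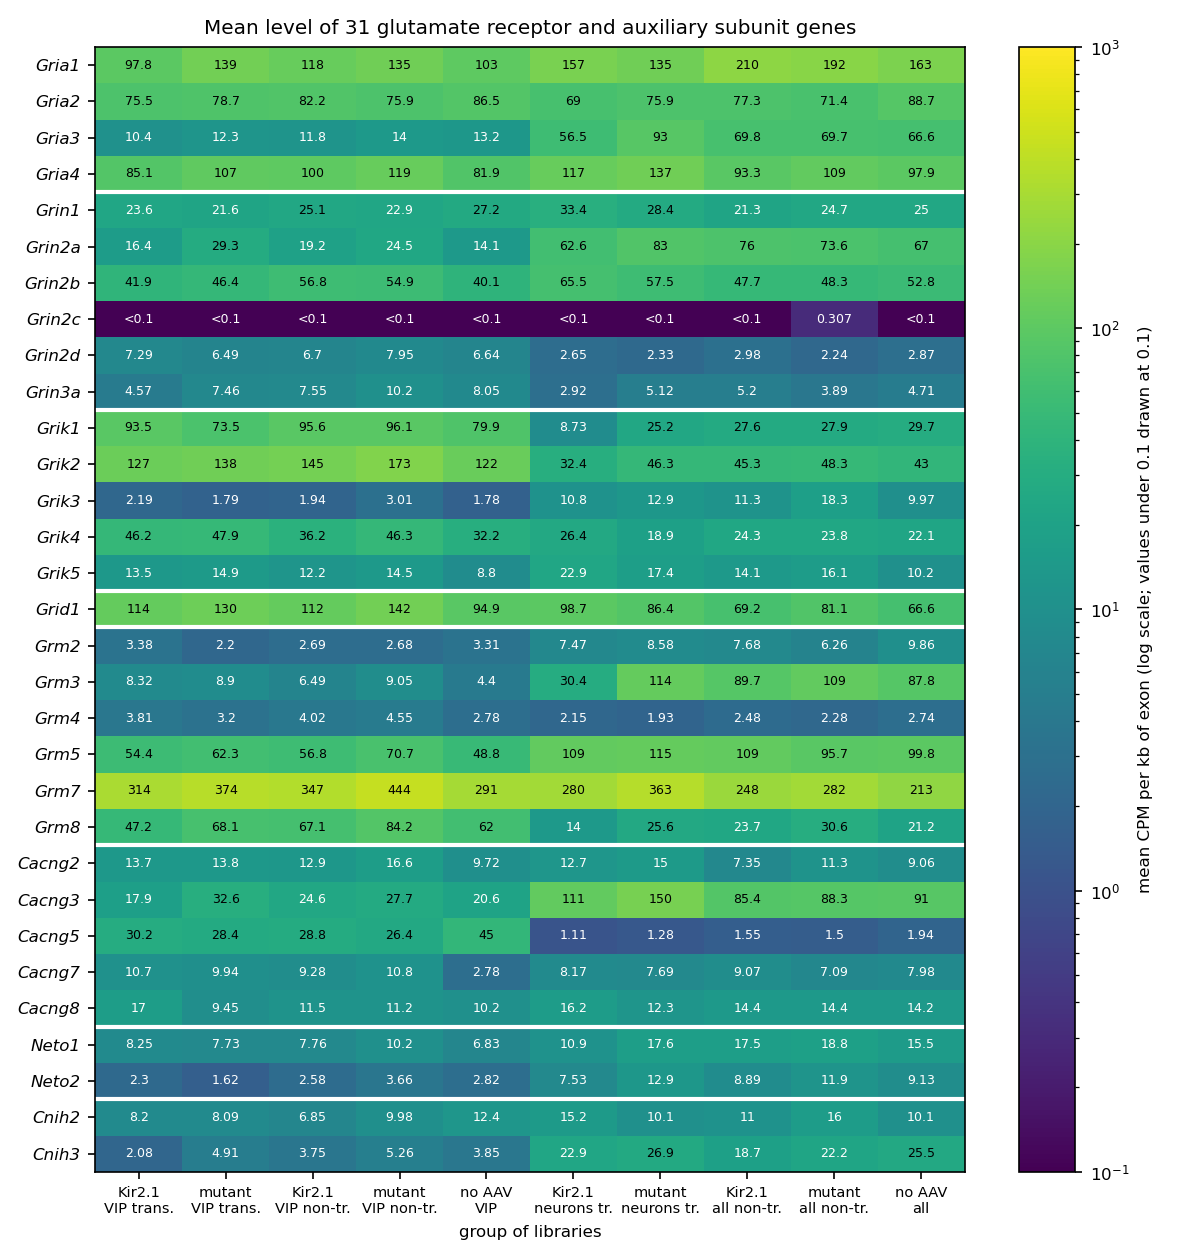
Mean level of each of the 31 genes (rows, by receptor class) in each of the 10 groups (columns), in CPM per kb of exon on a log colour scale; values under 0.1 are drawn at 0.1. Grm7 is the strongest row in every column and Grin2c the weakest, and Cacng5 is strong in the VIP columns and weak in the columns of neurons and all nuclei.

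The first comparison asked how VIP nuclei that received Kir2.1 differed from VIP nuclei that received the mutant, after the same time in the dark. Grin2a, encoding the NMDA receptor subunit GluN2A, which predominates at mature cortical synapses, was lower with Kir2.1 and was the one gene of the 31 to pass; no member rose. The gene lies at chr16:9567898-9995560 on the minus strand (mm10 coordinates of GENCODE vM21, as for all gene positions here). Its level lay at 166, 272 and 587 CPM (lowest, median, highest of 10 libraries) with Kir2.1 and at 377, 520 and 833 CPM (9 libraries) with the mutant. The groups overlapped through a single library: 9 of the 10 Kir2.1 libraries lay at or below 340 CPM, and replicate 6 at 587 CPM. The log2 fold change was -0.83 ± 0.19 (SE), a 1.77-fold lower level in Kir2.1 nuclei, with adjusted p = 0.00958 in edgeR's quasi-likelihood test with Benjamini-Hochberg adjustment over all 21207 genes tested. Without the libraries that stand apart it was -0.77 (adjusted p = 0.0389). In bulk samples like these, fewer cells of a type and less RNA per cell cannot be told apart. That is 1 of 31 members called, beside 1.39% of all genes called in either direction and 1.03% called lower; a member's median mean count was 445, against 63.5 for all genes tested, so members were measured with more reads than most genes.

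The other NMDA receptor subunits did not pass. Grin2b, encoding GluN2B, the subunit that predominates early in development, had a log2 fold change of -0.14 ± 0.16 (SE). It averaged 1041 ± 254 CPM with Kir2.1 and 1153 ± 126 CPM with the mutant (SD, n = 10 and 9). Grin3a, encoding a subunit that lowers calcium permeability, lay at 31.9, 43.9 and 133 CPM with Kir2.1 and at 31.3, 88.8 and 133 CPM with the mutant; its log2 fold change of -0.70 ± 0.21 had adjusted p = 0.0849 in edgeR. Most Kir2.1 libraries were low for Grin3a, but the ranges of both groups were nearly the same.

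None of the AMPA, kainate, delta or metabotropic receptor genes passed in transduced VIP nuclei. Gria1 averaged 591 ± 162 CPM with Kir2.1 and 839 ± 204 CPM with the mutant (SD, n = 10 and 9), a log2 fold change of -0.49 ± 0.15 with adjusted p = 0.0927 in edgeR. Grm8, encoding a presynaptic group III receptor, averaged 467 ± 165 CPM with Kir2.1 and 674 ± 144 CPM with the mutant, a log2 fold change of -0.52 ± 0.16 with adjusted p = 0.104 in edgeR. Among the auxiliary subunits, Cacng8 had a log2 fold change of 0.86 ± 0.29 (adjusted p = 0.137) and Cacng3 one of -0.84 ± 0.34 (adjusted p = 0.262, both edgeR). Over the 31 members 13 log2 fold changes were positive and 18 negative, with a median of -0.08, against 0.04 over all genes tested. An unadjusted p under 0.05 was reached by 8 of the 31 members, beside 11.2% of all genes.

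Cell identity markers moved in the same comparison. Of the 10 VIP neuron markers tested 5 were lower with Kir2.1 (Vip, Cck, Crh, Adarb2, Penk), and the summed level of the list lay at 7288, 9272 and 12729 CPM with Kir2.1 and 18014, 19674 and 20070 CPM with the mutant (lowest, median, highest). Of 8 pan-GABAergic markers 2 were lower (Dlx1, Dlx6os1), with summed levels of 904, 1383 and 1849 CPM and 1176, 2012 and 2428 CPM in the same order. Of 12 excitatory markers 0 passed, with summed levels of 46.7, 93.5 and 218 CPM with Kir2.1 and 45.0, 59.8 and 78.4 CPM with the mutant. Of 8 astrocyte markers 1 was lower (Slc4a4), with summed levels of 241, 302 and 450 CPM with Kir2.1 and 283, 363 and 440 CPM with the mutant. The part of these markers in the Grin2a difference was not tested. Without Kir2.1 replicate 6 the log2 fold change of Grin2a was -0.98, and Gria1, Grin3a and Grm8 also passed, giving 4 members. Leaving out single libraries also moved the number of all genes called, which ran from 219 to 429. Under a block on the replicate number, which the data did not show to pair libraries, Grin2a had adjusted p = 0.0670 in edgeR.

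**Figure D2:**
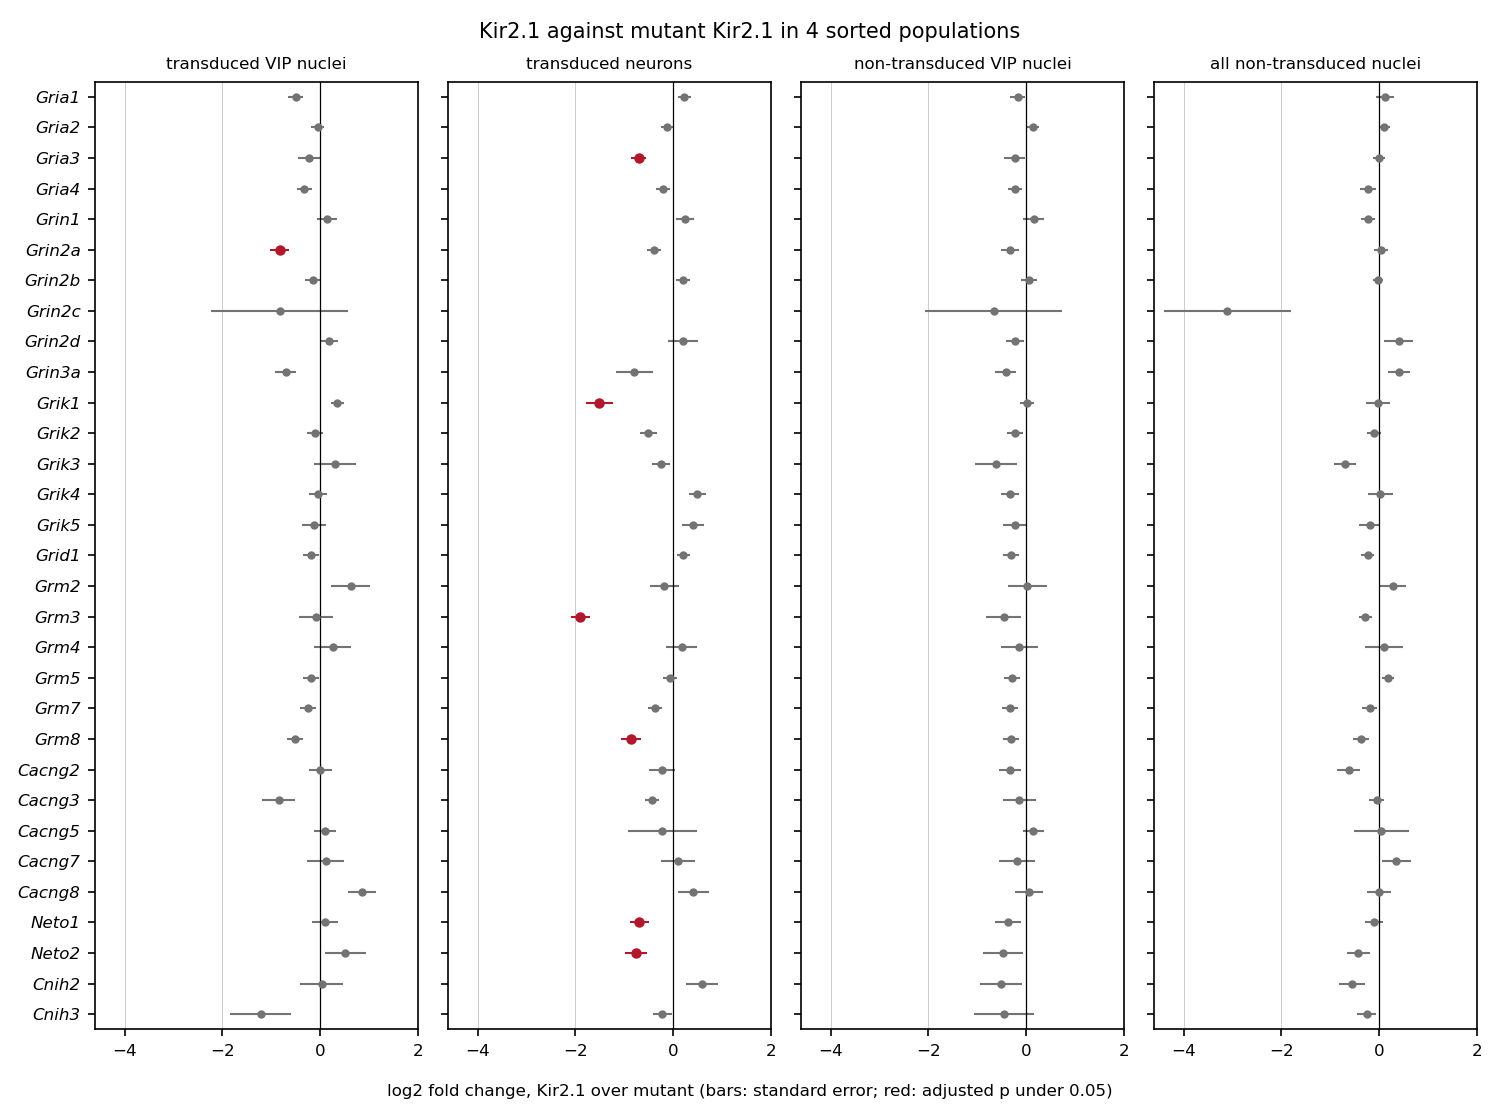
Log2 fold change of each member, Kir2.1 over mutant, with its standard error, in transduced VIP nuclei, transduced neurons, non-transduced VIP nuclei and all non-transduced nuclei; red points had an adjusted p under 0.05. Grin2a is red in transduced VIP nuclei, 6 genes are red and to the left in transduced neurons, and none is red in the non-transduced panels.

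The same vectors were then compared in transduced neurons. Here 6 of the 30 members tested were lower with Kir2.1 and none was higher: the metabotropic receptors Grm3 and Grm8, the kainate receptor subunit Grik1 with both of its auxiliary subunits Neto1 and Neto2, and the AMPA receptor subunit Gria3. Grm3 fell most, 3.71-fold. Of all 15949 genes tested 5.63% were called in either direction and 3.45% were called lower, and a member's median mean count was 817, against 130 for all genes tested. Grin2c did not pass the filter on low counts and was not tested.

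The start regions of the called genes that have an entry in the RefSeq promoter table (assembly GRCm38.p6) are Grm3, Grm8 and Neto2; they are shown because these genes were lower in neurons with Kir2.1, with 250 bases before to 50 bases after the RefSeq start, on the minus strand in each case. The Grm3 window is chr5:9725303-9725602, the Grm8 window chr6:28135097-28135396 and the Neto2 window chr8:85700875-85701174. The table holds 3 windows for Grm8 and 2 for Neto2, and the one that holds the gene start of GENCODE vM21 is printed for each; the single Grm3 window lies outside the gene's GENCODE span, at a start further upstream. They were searched for TGACTCA, the letters bound by AP-1, a factor of the activity-regulated Fos and Jun proteins, and for TGACGTCA, the cAMP response element; neither was found in any window of these 3 genes, so all letters are in lower case.
Grm3: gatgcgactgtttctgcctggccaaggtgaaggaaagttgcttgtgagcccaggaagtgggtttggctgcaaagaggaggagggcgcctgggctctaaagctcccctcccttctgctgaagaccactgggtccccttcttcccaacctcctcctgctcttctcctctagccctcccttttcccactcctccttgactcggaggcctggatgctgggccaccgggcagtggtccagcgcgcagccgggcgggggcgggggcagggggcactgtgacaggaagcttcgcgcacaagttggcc
Grm8: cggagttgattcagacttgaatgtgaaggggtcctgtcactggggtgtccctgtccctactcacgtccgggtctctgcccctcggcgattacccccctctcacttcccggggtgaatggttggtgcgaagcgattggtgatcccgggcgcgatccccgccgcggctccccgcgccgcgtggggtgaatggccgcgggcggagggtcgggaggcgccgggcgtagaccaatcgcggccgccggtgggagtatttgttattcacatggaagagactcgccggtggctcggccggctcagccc
Neto2: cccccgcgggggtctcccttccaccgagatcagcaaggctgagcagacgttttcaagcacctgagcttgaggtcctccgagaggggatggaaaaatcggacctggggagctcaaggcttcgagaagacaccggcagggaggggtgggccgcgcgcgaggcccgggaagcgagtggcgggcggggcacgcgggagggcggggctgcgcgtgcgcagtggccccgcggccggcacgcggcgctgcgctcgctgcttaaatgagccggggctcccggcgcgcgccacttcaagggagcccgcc
Both strands were searched, TGACGTCA reads the same on both, and neither motif contains the other. TGACTCA stood in 5.20% of the 32851 windows of the table and in 1 of the 26 windows of the 21 members with an entry, that of Cacng5. TGACGTCA stood in 1.79% of all windows and in 0 of the 26. A match or its absence describes letters in a window and says nothing of binding.

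Grm3 encodes mGlu3, a Gi-coupled group II receptor found in neurons and glia. The gene lies at chr5:9485541-9725170, minus strand. Its level lay at 67.3, 89.7 and 143 CPM (lowest, median, highest of 8 libraries) with Kir2.1 and at 226, 374 and 496 CPM (8 libraries) with the mutant. Every Kir2.1 library was below every mutant library. The log2 fold change was -1.89 ± 0.19 (SE), with adjusted p = 4.54e-07 in edgeR's test. Grm8 lay at 70.1, 134 and 228 CPM with Kir2.1 and at 176, 218 and 380 CPM with the mutant, so that the groups overlapped. Its log2 fold change was -0.86 ± 0.20, a 1.81-fold lower level, with adjusted p = 0.00971 in edgeR. The remaining 4 metabotropic receptors did not pass; among them Grm7 had a log2 fold change of -0.36 with adjusted p = 0.144.

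Grik1 encodes GluK1, a kainate receptor subunit known in rodent cortex mainly from interneurons. The gene lies at chr16:87895900-88290265, minus strand. Its level lay at 15.2, 55 and 93.1 CPM with Kir2.1 and at 118, 176 and 275 CPM with the mutant, with no overlap. The log2 fold change was -1.51 ± 0.28 (SE), a 2.85-fold lower level, with adjusted p = 0.000853 in edgeR. Neto1 and Neto2 encode membrane proteins that bind kainate receptors and slow their gating. Neto1 lay at 60.8, 81.9 and 127 CPM with Kir2.1 and at 110, 133 and 240 CPM with the mutant, a log2 fold change of -0.69 ± 0.19 with adjusted p = 0.0271 in edgeR. Neto2 lay at 16.9, 48.6 and 61.3 CPM with Kir2.1 and at 48.4, 83.7 and 113 CPM with the mutant, a log2 fold change of -0.76 ± 0.23 with adjusted p = 0.0498 in edgeR. Both Neto genes overlapped between the vectors. The other kainate receptor subunits did not pass: Grik2 had a log2 fold change of -0.50 (adjusted p = 0.0787) and Grik4 one of 0.50 (adjusted p = 0.0798).

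Gria3, an X-linked AMPA receptor subunit gene encoding GluA3, lay at 388, 520 and 785 CPM with Kir2.1 and at 736, 847 and 1165 CPM with the mutant. The groups overlapped slightly, and the log2 fold change was -0.70 ± 0.15 (SE), a 1.63-fold lower level, with adjusted p = 0.00299 in edgeR. Grin2a averaged 1123 ± 259 CPM with Kir2.1 and 1489 ± 190 CPM with the mutant (SD, n = 8 each). Its log2 fold change of -0.39 ± 0.14 had adjusted p = 0.1 in edgeR and did not pass. Over the 30 members 11 log2 fold changes were positive and 19 negative, with a median of -0.21, against 0.04 over all genes tested, and 12 of them had an unadjusted p under 0.05, beside 18.4% of all genes.

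**Figure D3:**
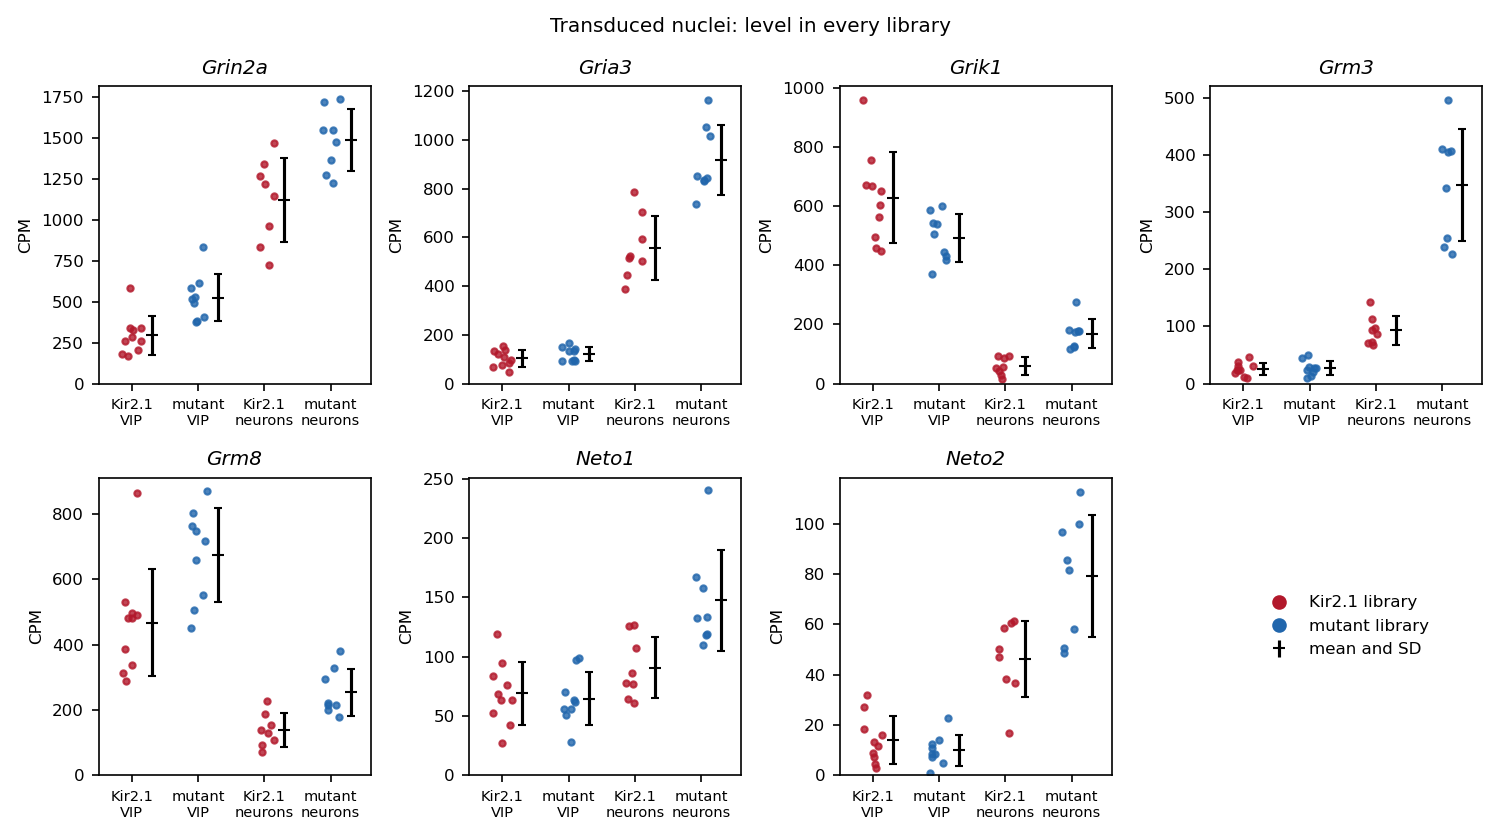
Level in CPM of Grin2a, Grm3, Grik1, Gria3, Grm8, Neto1 and Neto2 in every library of transduced nuclei; points are libraries, Kir2.1 left of mutant for VIP nuclei and then for neurons, with the mean and SD in black. Grm3 in neurons lies between 67.3 and 143 CPM with Kir2.1, below the 226 to 496 CPM with the mutant, and Grik1 is separated in the same way.

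Markers of GABAergic cells moved with these genes. The pan-GABAergic list summed to 49.7, 96.2 and 156 CPM in Kir2.1 neurons and 136, 229 and 302 CPM in mutant neurons (lowest, median, highest), and its members Gad1 and Dlx6os1 were lower. Of 4 tested VIP neuron markers 1 was lower (Adarb2), and of 7 tested markers of other interneurons 2 were lower (Lamp5, Reln) and 1 was higher (Nos1). Of 12 excitatory markers 0 passed, with sums of 732, 921 and 1183 CPM with Kir2.1 and 857, 1070 and 1440 CPM with the mutant. Of 7 tested astrocyte markers 2 were lower (Aldh1l1, Slc4a4), with sums of 106, 171 and 224 CPM and 176, 214 and 245 CPM in the same order. In neither transduced comparison did any tested marker of oligodendrocytes, their precursors, microglia or vascular cells pass. In neurons only 1 of 6 precursor markers and 0 of 6 vascular markers passed the filter on low counts, so vascular cells could not be assessed there. The part of the cell type markers in the 6 differences was not tested. Without the Kir2.1 library that stands apart the log2 fold changes were -1.88 for Grm3, -1.64 for Grik1, -0.64 for Gria3, -0.79 for Grm8, -0.66 for Neto1 and -0.64 for Neto2. Grm3, Grik1 and Gria3 passed under every alternative; Grm8 did not under the replicate block (adjusted p = 0.0566). Neto1 missed the threshold under the block (adjusted p = 0.130) and without any 1 of 7 of the 16 libraries. Neto2 missed it without any 1 of 10 libraries, among them the one that stands apart (adjusted p = 0.0598), and with total counts as library sizes (adjusted p = 0.0885).

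Whether the vector difference itself differed between VIP nuclei and neurons was tested with an interaction term over the 35 transduced libraries. Grik1 and Grm3 passed, 2 of 30 members, beside 0.316% of all genes called in either direction and 0.202% called with a positive term. The Grik1 difference (Kir2.1 over mutant, VIP minus neurons) was 1.91 ± 0.32 on the log2 scale (SE, adjusted p = 0.0015, edgeR). Its level in VIP nuclei was 629 ± 154 CPM with Kir2.1 and 494 ± 81.2 CPM with the mutant (SD, n = 10 and 9), an excess of Kir2.1 that did not pass on its own (log2 fold change 0.36 ± 0.14, adjusted p = 0.228). The Grm3 difference was 1.85 ± 0.37 (SE, adjusted p = 0.00808, edgeR), with only 25.4 ± 11.3 CPM in Kir2.1 and 27.1 ± 13.0 CPM in mutant VIP nuclei. Without the libraries that stand apart the differences were 1.98 for Grik1 and 1.93 for Grm3, both past the threshold. For Grin2a the difference was -0.40 with adjusted p = 0.903, so its lower level in VIP nuclei was not shown to differ from that in neurons.

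The ratio of Grin2a to Grin2b counts within a library, which needs no library scaling, was lower with Kir2.1 in both transduced populations. In VIP nuclei the log2 ratio lay at -2.18, -1.89 and -1.41 with Kir2.1 (lowest, median, highest of 10 libraries) and at -1.64, -1.09 and -0.76 with the mutant (9 libraries). The means were -1.88 ± 0.26 and -1.17 ± 0.32 (SD), a difference of -0.71 with exact two-sided permutation p = 0.000141, or 0.000469 adjusted over the 10 ratio tests made. In neurons the log2 ratio lay at -1.07, -0.50 and -0.09 with Kir2.1 and at -0.14, 0.03 and 0.28 with the mutant (8 libraries each). The means were -0.53 ± 0.31 and 0.06 ± 0.13 (SD), a difference of -0.59 with exact permutation p = 0.000311 and adjusted p = 0.000777. The groups overlapped through 1 Kir2.1 library in VIP nuclei, replicate 6, and through Kir2.1 replicate 5 and mutant replicate 7 in neurons. Since Grin2a in VIP nuclei is one of the counts in this ratio, the ratio is another view of that gene and not separate evidence. Within females and within males by label the differences kept their sign, at -0.49 and -0.92 in VIP nuclei and -0.43 and -0.86 in neurons. They missed the threshold, with adjusted exact permutation p from 0.0529 to 0.0714. These subsets are small: in labelled males 3 against 4 neuron libraries allow 35 arrangements, and the smallest possible exact permutation p of 0.0286 was reached. The label also went against Xist and Y-linked counts in 32 of the 79 libraries, so the subsets cannot be taken as females and males.

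**Figure D4:**
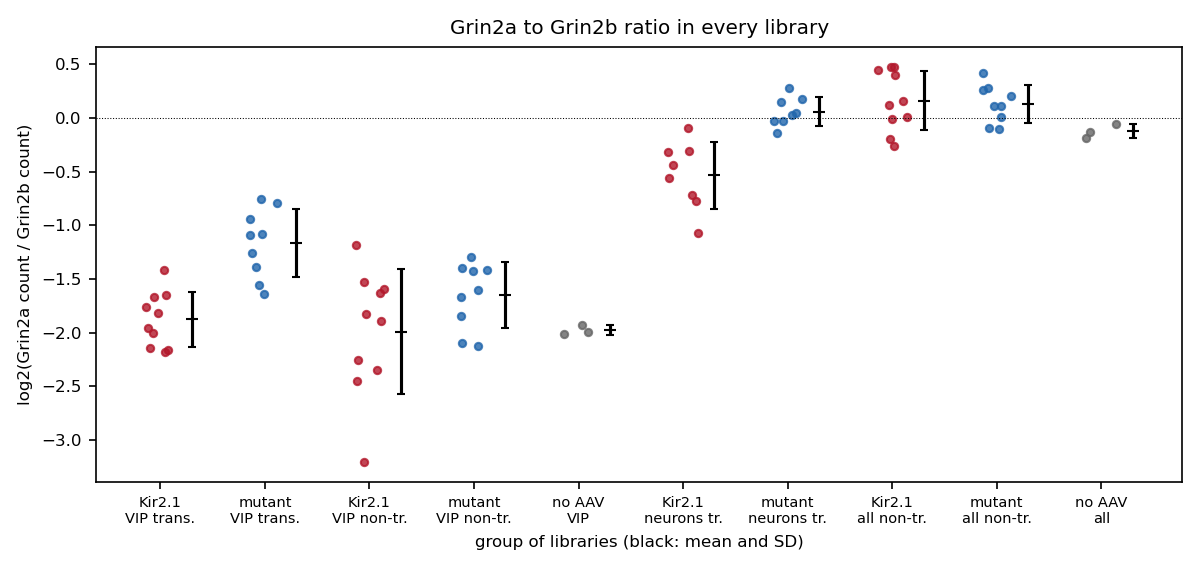
Log2 ratio of Grin2a to Grin2b counts in every library of the 10 groups, Kir2.1 left of mutant and groups with no AAV last within a population; black marks give the mean and SD. In transduced nuclei the Kir2.1 means of -1.88 and -0.53 lie below the mutant means of -1.17 and 0.06, and the highest VIP library lies at -0.76.

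In non-transduced VIP nuclei the log2 ratio averaged -1.99 ± 0.58 in Kir2.1-injected and -1.65 ± 0.31 in mutant-injected mice (SD, n = 10 and 9), a difference of -0.34 with adjusted exact permutation p = 0.200. In all non-transduced nuclei it averaged 0.16 ± 0.28 and 0.13 ± 0.18 (SD, n = 10 and 9; adjusted exact permutation p = 0.876). A second ratio, the share of Gria2 in the summed Gria1 to Gria4 level per kb, addressed GluA2, the subunit that makes AMPA receptors impermeable to calcium. It averaged 28.7 ± 5.42% with Kir2.1 and 23.9 ± 5.47% with the mutant in transduced VIP nuclei (SD, n = 10 and 9; adjusted exact permutation p = 0.133), and 17.5 ± 3.84% and 17.4 ± 2.41% in transduced neurons (SD, n = 8 each; adjusted exact permutation p = 0.950). The share depends on the length scaling: without it the means were 49.2% and 43.1% in VIP nuclei and 32.5% and 31.5% in neurons, Kir2.1 before mutant, with adjusted exact permutation p = 0.127 and 0.736. Whether the vector difference in either ratio differed between populations was not tested.

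In nuclei that did not take up the vector, none of the 31 genes passed between Kir2.1-injected and mutant-injected mice. In non-transduced VIP nuclei 0 of 31 were called by edgeR, beside 0% of all genes, and DESeq2 called 0 members and 14 genes; 8.69% of all genes and 0 members had an unadjusted p under 0.05. In all non-transduced nuclei edgeR called 0 of 31 beside 0% of all genes, and DESeq2 called 0 members and 2 genes; 6.03% of all genes and 5 of 31 members (Grin2c, Grik3, Grm3, Grm8, Cacng2) had an unadjusted p under 0.05. Grin2a averaged 345 ± 102 CPM in Kir2.1-injected and 439 ± 144 CPM in mutant-injected non-transduced VIP nuclei (SD, n = 10 and 9).

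Transduced VIP nuclei were also set against non-transduced VIP nuclei of mice given the same vector. With Kir2.1, 0 of 31 members passed in edgeR, beside 0.769% of all genes (163 genes), and 4 members had an unadjusted p under 0.05, beside 9.3% of all genes. Grin3a, at 56.2 ± 31.3 CPM in transduced and 92.7 ± 20.5 CPM in non-transduced nuclei (SD, n = 10 each), came closest with a log2 fold change of -0.72 and adjusted p = 0.0885; DESeq2 called it as the one member (adjusted p = 0.0490). Under a block on the replicate number Grin3a (-0.85, adjusted p = 0.0490) and Grm8 (-0.56, adjusted p = 0.0243) were called in edgeR; 7 of 10 libraries correlated best with the library of their own number here, though the pairs' correlations ran from 0.00914 to 0.236. Grin2a had a log2 fold change of -0.22 ± 0.18 with Kir2.1 and 0.28 ± 0.19 with the mutant, neither past the threshold. With the mutant 0 of 31 members passed, beside 0.00943% of all genes, and 2 had an unadjusted p under 0.05, beside 5.23% of all genes; DESeq2 called 0 members and 3 genes. The difference of these differences, vector by transduction, called 0 of 31 members beside 0.401% of all genes; 0 members had an unadjusted p under 0.05, beside 7.77% of all genes, and DESeq2 called 0 members and 87 genes. For Grin2a it was -0.50 ± 0.27 on the log2 scale (adjusted p = 0.707). The lower Grin2a of Kir2.1 nuclei was therefore shown against mutant transduced nuclei, and not against non-transduced nuclei of mice given Kir2.1.

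AAV injection itself was compared with no AAV in 3 libraries per population. Every library with no AAV is labelled male, while the AAV-injected groups hold both labels, and the sex label was not a covariate here. In non-transduced VIP nuclei 0 of 31 members passed beside 0.00943% of all genes, with 3 members at an unadjusted p under 0.05 (9.88% of all genes), while the median log2 fold change of all genes was 0.12. The gene closest to the threshold was Cacng7, an AMPA receptor regulatory gene, with 3.13, 8.24 and 9 CPM in the 3 libraries with no AAV and means of 22.7 ± 15 CPM in Kir2.1-injected and 26.3 ± 18.0 CPM in mutant-injected mice (SD, n = 10 and 9; adjusted p = 0.440). In all non-transduced nuclei 0 of 31 passed beside 0.211% of all genes, with 0 members at an unadjusted p under 0.05 (10.7% of all genes). Kir2.1 transduced VIP nuclei against VIP nuclei with no AAV gave 0 of 31 beside 0.222% of all genes, with 2 members at an unadjusted p under 0.05 (9.24% of all genes). DESeq2 called 0 members in each of these 3 comparisons, and 72, 382 and 155 genes in the order given.

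Many of the 31 genes differed between VIP nuclei and the whole tissue. Of the 31 genes 22 passed between non-transduced VIP nuclei and all non-transduced nuclei, 11 higher and 11 lower. Of all 22855 genes tested 32.6% passed (12.8% higher, 19.7% lower). A member's median mean count was 993, against 58.1 for all genes tested, so members were measured with more reads than most genes. The AMPA receptor subunits had 0 higher and 2 lower, the kainate receptor subunits 3 higher and 1 lower, and the metabotropic receptors 3 higher and 3 lower. The 12 called genes with the largest folds are described next, as means ± SD over 22 libraries of each population; the edgeR fit held the vector as a term, and each of these folds had an adjusted p of at most 8.53e-11.

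Among auxiliary subunits, Cacng5 stood at 54.2, 109 and 240 CPM (lowest, median, highest) in VIP nuclei and 0.802, 5.34 and 16.2 CPM in all nuclei, with no overlap. Cacng5 encodes a type II regulatory protein of AMPA receptors, and its log2 fold change of 4.24 ± 0.26 (SE) was an 18.9-fold higher level (adjusted p = 7.86e-20, edgeR). Cacng3 averaged 70.4 ± 27.8 CPM in VIP nuclei and 243 ± 50.8 CPM in all nuclei, 3.43-fold lower. Cnih3, a cornichon that promotes AMPA receptor export, averaged 12.1 ± 6.06 CPM and 57.8 ± 15.5 CPM in the same order, 4.78-fold lower. Neto2 averaged 18.7 ± 8.89 CPM in VIP nuclei and 62.2 ± 21.6 CPM in all nuclei, 3.31-fold lower. Cacng3 and Cnih3 were separated without overlap, and Neto2 was not.

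Among channel subunits, Gria3 averaged 127 ± 46.7 CPM in VIP nuclei and 683 ± 112 CPM in all nuclei, 5.35-fold lower, while Gria2 and Gria4 did not pass. Grin2a averaged 371 ± 129 CPM in VIP nuclei and 1323 ± 282 CPM in all nuclei, 3.59-fold lower. Grin2d, an NMDA receptor subunit known in rodent forebrain from interneurons, averaged 47.9 ± 10.9 CPM in VIP nuclei and 17.7 ± 6.81 CPM in all nuclei, 2.74-fold higher. Neither Grin1, the subunit every NMDA receptor holds, nor Grin2b passed. The log2 ratio of Grin2a to Grin2b averaged -1.85 ± 0.46 in VIP nuclei and 0.11 ± 0.23 in all nuclei (SD, n = 22 each), with permutation p = 1e-05, the smallest that 100000 permutations can give. The Gria2 share averaged 25.5 ± 5.05% in VIP nuclei and 17.7 ± 3.73% in all nuclei (SD, n = 22 each), also at the smallest permutation p of 1e-05; without the length scaling it was 45.1% and 32.6%.

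The kainate receptor subunits differed in both directions. Grik1 averaged 629 ± 120 CPM in VIP nuclei and 188 ± 75.2 CPM in all nuclei, 3.37-fold higher, and Grik2 2032 ± 625 CPM and 612 ± 129 CPM, 3.32-fold higher. Grik3 averaged 21.1 ± 16.3 CPM in VIP nuclei and 125 ± 53.0 CPM in all nuclei, 5.86-fold lower. Among metabotropic receptors, Grm3 averaged 22.1 ± 12.4 CPM in VIP nuclei and 296 ± 58.9 CPM in all nuclei, 13.6-fold lower. Grm8 averaged 726 ± 216 CPM in VIP nuclei and 259 ± 71.4 CPM in all nuclei, 2.83-fold higher.

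In transduced nuclei VIP was set against neurons within each vector. With Kir2.1, 19 of 30 members passed, 6 higher and 13 lower, beside 18.9% of all genes (8.21% higher, 10.7% lower). With the mutant, 17 of 30 passed, 7 higher and 10 lower, beside 17.9% of all genes (7% higher, 10.9% lower). A member's median mean count was 823 with Kir2.1 and 1108 with the mutant, against 106 and 90.4 for all genes tested. Grik1 was higher in VIP nuclei with both vectors, by 3.41 ± 0.25 on the log2 scale with Kir2.1 and by 1.5 ± 0.23 with the mutant (SE). Grm3 was lower in VIP nuclei, with log2 fold changes of -1.88 ± 0.26 with Kir2.1 and -3.73 ± 0.28 with the mutant. For these genes the gap between populations differed with the vector, as the interaction above states. Cacng5 was higher in VIP nuclei by 4.78 with Kir2.1 and 4.41 with the mutant on the log2 scale, and Grin2a was lower, at -1.95 and -1.54.

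**Figure D5:**
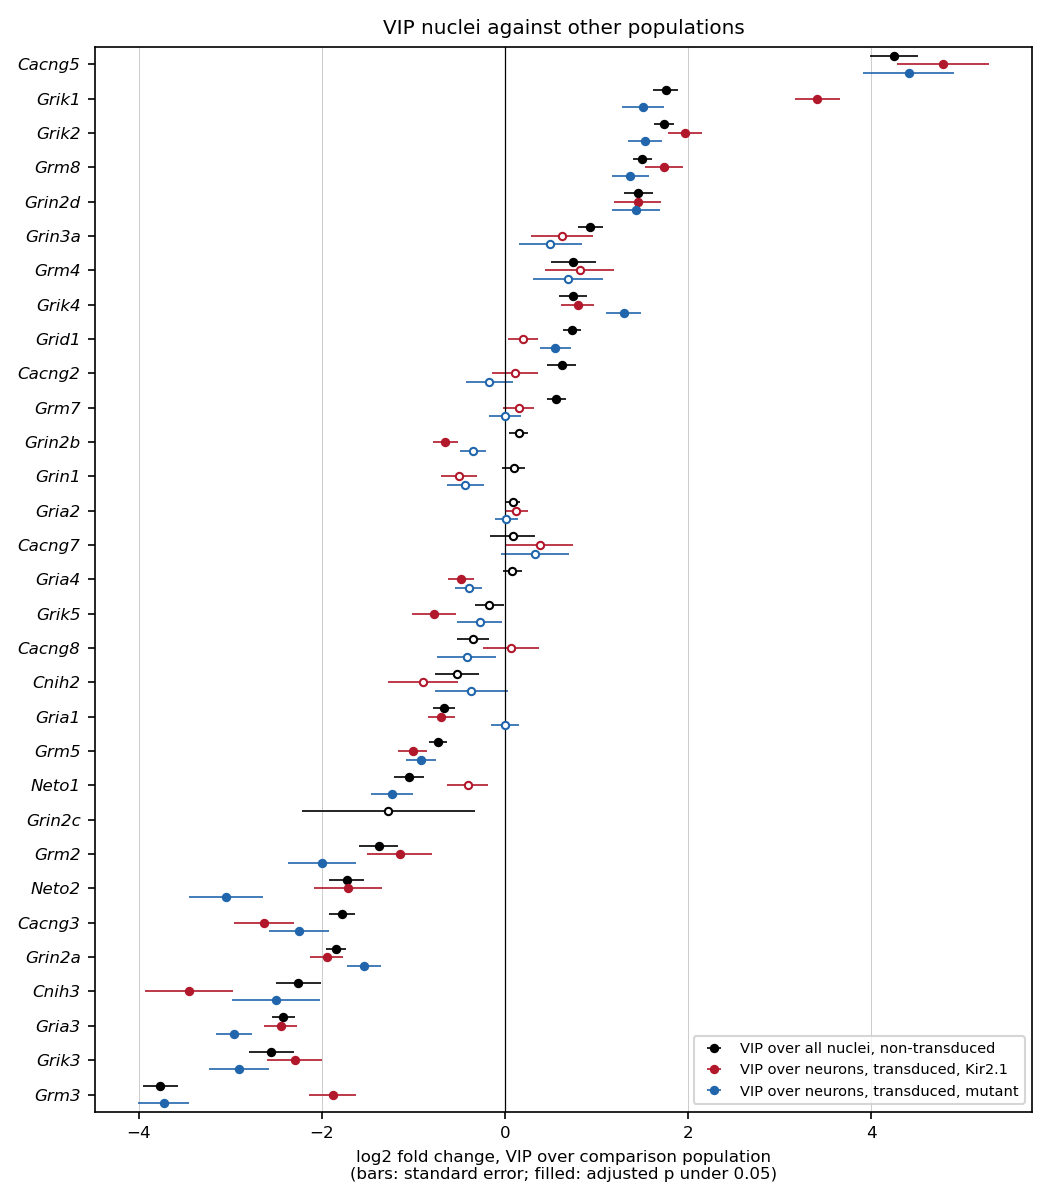
Log2 fold change of each member in VIP nuclei over all non-transduced nuclei, over transduced neurons with Kir2.1 and over transduced neurons with the mutant, with its standard error; filled points had an adjusted p under 0.05. Cacng5 leads at 4.24, Grm3 closes at -3.77, and Grik1 and Grm3 show the widest gap between the Kir2.1 and mutant points.

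Other genes of glutamate signalling were taken from 3 lists and compared between Kir2.1 and mutant. Among partners and assembly factors of AMPA receptors, 1 of 22 rose in transduced VIP nuclei (Cpt1c, 0.80 ± 0.22, adjusted p = 0.0467) and 1 fell (Shisa9, -0.64 ± 0.16, adjusted p = 0.0297), where 0.354% of all genes were called higher and 1.03% lower. In neurons 5 of 20 rose and 3 fell, beside 2.18% of all genes called higher and 3.45% lower; Cpt1c (0.93 ± 0.16, adjusted p = 0.000501), the neuronal pentraxin Nptx1 (0.85 ± 0.18, adjusted p = 0.00412) and Prrt2 (1.07 ± 0.26, adjusted p = 0.0132) were the first by p. All these are log2 fold changes with their SE from edgeR. The median of that list was 0.03 in VIP nuclei and 0.25 in neurons, against 0.04 for all genes tested in each.

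Among postsynaptic scaffold and trafficking genes, 1 of 27 rose in transduced VIP nuclei, beside 0.354% of all genes called higher. It was Camk2a, a kinase that binds NMDA receptors, with a log2 fold change of 0.89 ± 0.12 and adjusted p = 1.52e-06 in edgeR. In neurons 5 of 27 fell and none rose, beside 3.45% of all genes called lower. Homer1, which links group I metabotropic receptors to the scaffold, fell by 1.13 ± 0.20 on the log2 scale (adjusted p = 0.000618), and the scaffold genes Cnksr2 and Dlgap2 fell by 0.84 ± 0.18 and 0.63 ± 0.14 (adjusted p = 0.00538 and 0.0057, edgeR). The median of the list was -0.04 in VIP nuclei and -0.07 in neurons. Among genes of glutamate transport and metabolism 0 of 15 passed in VIP nuclei, beside 1.39% of all genes. In neurons 1 of 15 fell, beside 3.45% of all genes called lower. It was Slc1a2, the main astrocytic glutamate transporter (-0.99 ± 0.14, adjusted p = 5.79e-05, edgeR). The astrocyte marker sums of transduced neurons, given above, overlapped between the vectors, and their part in the Slc1a2 difference was not tested. Between non-transduced VIP nuclei and all nuclei, 8 of 22, 5 of 28 and 2 of 16 genes of the 3 lists were higher and 8, 13 and 6 were lower, beside 12.8% of all genes higher and 19.7% lower.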

How the data were processed

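RNA of 50 to 100 sorted nuclei per library was copied with oligo-dT primers and amplified in 17 PCR cycles, per the labels' protocols; the kit does not mark strand and no molecular identifiers were used, so counts are of reads. The authors deposited raw counts per gene for 79 libraries; per the submitters' processing notes they used cutadapt 1.18, STAR 2.5.3a, HOMER 4.9.1 and mm10. The sources used here do not say whether introns or shared reads were counted. Where exons overlap, reads of 2 genes cannot be separated, which touches Gria3, Grm8, Neto1, Neto2, Grin1 and Grin2b among others. All columns had a sample (0 without one). Gene IDs were matched to GENCODE vM21 for names, exon lengths and overlaps (55154 matched, 181 did not), and 21 of 31 members had an entry in the RefSeq promoter table.

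Counts were tested with edgeR 4.0.16 (R 4.3.3; TMM scaling, quasi-likelihood test, two-sided, filterByExpr with a minimum count of 10 and total of 15), with Benjamini-Hochberg adjustment over all genes tested and a threshold of 0.05. Comparisons among VIP nuclei shared 1 fit of 41 libraries. All nuclei were fitted over 22 libraries, neurons over 16, transduced populations over 35, and VIP against all nuclei over 44. Each SE was derived from the fold change and its F statistic. CPM use TMM over all 79 libraries. Ratios were compared by permutation. The scripts were tested on simulated data. Alternatives were DESeq2 1.42.0, total counts as library sizes, no filter, only the groups compared and a block on the replicate number. The sex label was a covariate except in the comparisons with no AAV. Each library was left out only between Kir2.1 and mutant. In the comparisons with no AAV only libraries with no AAV were left out in turn. Single libraries were not left out for the interactions, VIP against other populations, or transduced against non-transduced nuclei. The 5 libraries that stand apart were also left out together (chosen after seeing the data, with a correlation more than 0.045 under the group's median). No label ties numbers to animals, so p-values measure the spread between libraries. Same-numbered libraries of 1 vector often resembled each other, and all 22 sets of 1 vector and 1 number matched in Xist against Y-linked counts, but not every pair had a correlation above 0.1, so the block stayed an alternative.

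All 31 members may be named. Full values are given for those called between vectors or in an interaction, and for the 12 largest called folds of VIP against all nuclei. Genes of the pathway lists are named only if called in transduced nuclei, at most 3 per list; Kcnj2 is given as the check of the vector. Beyond this, the called markers of each cell type and Chrna2 were named after their values were seen. The members and lists were chosen with earlier results of these data known. Some genes of the lists are not reported here.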

Additional observations from a re-analysis of the deposited data

Results flagged for a closer look

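A check for a library far from the rest covered 44 sets of libraries. A set was 1 called gene in 1 transduced group, or 1 of the Grin2a to Grin2b and Gria2 ratios in 1 group with AAV. Chance alone gives such a library in about 5% of sets. It was found in 4 sets, all of a gene and none of a ratio. In Kir2.1 transduced VIP nuclei replicate 6 was highest for Grin2a, at 587.3 CPM with the next library at 340.1 CPM, and for Grm8, at 866.1 CPM with the next at 530.2 CPM. Without that library the log2 fold change of Grin2a against the mutant was -0.98. In mutant transduced neurons replicate 4 was highest for Grik1, at 274.9 CPM with the next at 180.1 CPM, and for Neto1, at 240.4 CPM with the next at 167.4 CPM. Without it the log2 fold change of Grik1, Kir2.1 over mutant, was -1.39 (adjusted p = 0.00252) and that of Neto1 was -0.56 (adjusted p = 0.0729, edgeR).

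The vector difference differed between VIP nuclei and neurons for Grik1, by 1.91 on the log2 scale, and for Grm3, by 1.85, both past the threshold of the interaction term. Neither gene was lower with Kir2.1 in VIP nuclei past the threshold, while both were in neurons.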

How the results depend on the processing

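No called value reversed under any alternative. Of 554 values of called members under the alternatives, 526 kept their call and 28 lost it. In transduced VIP nuclei the 1 called member (Grin2a) became 2 with DESeq2 (Gria1 added) and 0 under the replicate block (Grin2a adjusted p = 0.0670, edgeR). With single libraries left out 1 to 4 members were called, while all genes called ran from 219 to 429. It was 4 members without Kir2.1 replicate 6 and 2 without mutant replicate 6, which added Grin3a. In transduced neurons the 6 called members became 3 under the block and 5 without the libraries that stand apart. They became 8 with DESeq2 and with the sex label as a covariate. With single libraries left out 4 to 9 members were called, while all genes called ran from 639 to 1062. It was 9 members without Kir2.1 replicate 8. It was 4 without any 1 of Kir2.1 replicates 3, 4, 5 and 7 or mutant replicates 4 and 9. Kir2.1 transduced against non-transduced VIP nuclei gave 0 members, 1 with DESeq2 and 2 under the block (Grin3a and Grm8). The number of all genes called also changed under the alternatives, so these member counts are no result about the members alone.

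Replicate numbers did not pair libraries across vectors: deviations of same-numbered libraries had a median correlation of 0.01 over 9 pairs in transduced VIP nuclei and -0.03 over 7 pairs in neurons, and 1 of 9 and 0 of 7 libraries correlated best with their own number. Within a vector the numbers carried a hint of pairing: between transduced and non-transduced VIP nuclei it was 7 of 10 with Kir2.1 and 6 of 9 with the mutant. Under the block the genes called were 145 against 294 in transduced VIP nuclei and 538 against 898 in neurons. Under the block 5 and not 2 genes were called between transduced and non-transduced VIP nuclei with the mutant, 13 and not 2 for AAV against no AAV in VIP nuclei, and 10 and not 47 for Kir2.1 transduced nuclei against no AAV. Between the vectors it ended the calls of Grin2a, Grm8, Neto1 and Neto2, and between VIP nuclei and neurons with Kir2.1 those of Grik5 and Grm2. It added calls of Gria4, Grin1 and Grin2b between VIP nuclei and neurons with the mutant, and of Cacng8 and Cnih2 between VIP and all non-transduced nuclei.

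Within a labelled sex the difference in the log2 ratio of Grin2a to Grin2b lost its call. It was -0.49 in females and -0.92 in males for transduced VIP nuclei, and -0.43 and -0.86 for transduced neurons. Fewer libraries enter each, and the label went against Xist and Y-linked counts in 32 of the 79 libraries. Without the 5 libraries that stand apart the difference was -0.69 in transduced VIP nuclei and -0.52 in transduced neurons.

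Counts over all genes moved more. DESeq2 called 1388 genes and not 898 in transduced neurons, 103 and not 58 for the vector by population term, 14 and 2 in the non-transduced VIP and all-nuclei comparisons of the vectors where edgeR called 0, and 72, 382 and 155 where edgeR called 2, 45 and 47 in the comparisons with no AAV. With no filter on low counts the vector by transduction term called 719 genes and not 85, the vector by population term 274 and not 58, VIP against neurons with Kir2.1 5673 and not 3474, and AAV against no AAV 214 in VIP and 289 in all nuclei. Fits of only the groups compared called 105 and not 163 genes for Kir2.1 transduced against non-transduced, 35 and not 85 for the vector by transduction term, and 5 and 23 against no AAV where 2 and 47 were called. Without any 1 of the 3 VIP libraries with no AAV, 17 to 22 genes and not 47 were called for Kir2.1 transduced nuclei against no AAV. For AAV against no AAV in all nuclei 23 and not 45 were called without replicate 2 with no AAV. In VIP nuclei with Kir2.1 against no AAV, 111 of 155 genes called by DESeq2 were higher, against 15 of 47 called by edgeR. With total counts as library sizes, 455 of 896 called genes were higher in Kir2.1 neurons, against 347 of 898 with TMM, and 6 members were called, with Grik4 (higher) in place of Neto2. These shifts were not traced to a cause. Depth limits genes near 0, Grin2c among the members.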
